A study of Homo sapiens with 30 samples.

Results

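The major histocompatibility complex (MHC) on chromosome 6 was described here through its open chromatin in an endothelial line and a hybrid line, both human. The assay was ATAC-seq, where a transposase inserts adapters into accessible DNA. Its members were all peaks whose summit lay in hg19 chr6 between 29.5 and 33.4 Mb. Over 30 libraries these were 10772 summits of 3051490 on the autosomes. The strong peaks fell into 315 regions of a fixed width, of 107672 regions in all. Of the 315 regions, 162 lay in the class I part (29.5 to 31.5 Mb), 81 in the class III part (31.5 to 32.3 Mb) and 72 in the class II part (32.3 to 33.4 Mb). The nearest region outside the lower bound had strong peaks in 12 of 15 TeloHAEC and 0 of 15 Eahy926 libraries, and the nearest inside in 3 and 0. At the upper bound the nearest region inside had them in 2 and 1, and the nearest outside in 15 and 15.

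TeloHAEC is a line of human aortic endothelium made immortal by telomerase, and Eahy926 is a hybrid line, so not purely endothelial. All cells were parental, and only 1 line of each kind was used. Each line gave 15 libraries in 5 groups of 3, which the labels call biological replicates. Libraries were prepared on 2 days, 0 and 1, and controls in normal growth medium were made on both. On day 1 other cells received 10 ng/ml interleukin 1 beta (IL1b) or 10 ng/ml tumor necrosis factor alpha (TNFa) for 24 h. In the last group of day 1 the supply of VEGF was changed, with addition to the Eahy926 medium (normally free of it) and omission from the TeloHAEC medium. The files hold peak lists without counts, so each peak was described by its place in its library, where place 1 is the peak with the smallest p of the authors. The rank score was log2 of 49775 over the place, and 0 without a peak, so that a change of 1 stands for a 2-fold better place. A strong peak is one of the 45000 strongest of its library.

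Depth ranged from 3577273 to 11404955 tags after removal of duplicates. The 6 libraries of day 0 had tags of 30 bp and the 24 of day 1 tags of 40 bp. Of 7 endothelial marker genes, CDH5, KDR and TIE1 had a strong peak at the start in 13 to 15 of 15 libraries of each line. TEK and VWF had one in at most 2 libraries per line, and the nearest tested regions of PECAM1 and ERG, 1.58 kb downstream and 17.99 kb upstream of the starts, in 0 of 15 Eahy926 and in 5 and 7 TeloHAEC libraries. For the epithelial genes EPCAM and CDH1 the nearest tested regions lay 8.04 and 32.77 kb upstream of the starts. They had a strong peak in 15 and 13 Eahy926 libraries against 0 and 1 of TeloHAEC. At the start of KRT19, also an epithelial gene, a strong peak stood in 0 and 4, which goes the other way.

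Class I genes (HLA-B and HLA-C and the less variable HLA-E and HLA-F among them) encode surface molecules of nearly all nucleated cells that show peptides from inside the cell to cytotoxic T cells and natural killer cells. Their peptides are cut by the immunoproteasome subunits PSMB8 and PSMB9, carried by the transporter TAP1 and TAP2 and loaded with the help of TAPBP, all encoded in the class II part. Class II genes (HLA-DR, HLA-DQ, HLA-DP) show peptides to helper T cells, need the co-activator CIITA, and are silent in most resting cells outside the immune system. The class III part holds complement genes, the TNF cluster, heat shock genes and NOTCH4, a Notch receptor of endothelium. Class I genes are known targets of NF-kB, which both cytokines activate, and of interferon-activated factors.

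The 300 bases from 250 before to 50 after the start are shown for 3 class I genes, of which 2 differed between the lines and 1 had no peak in Eahy926, and for CFB, the complement factor B gene, which had the smallest p of the MHC with IL1b in TeloHAEC and did not pass the test. They are RefSeq sequences of GRCh38.p14, not the build of the peaks, in the direction of transcription: HLA-F at chr6:29723184-29723483 on the + strand, HLA-C at chr6:31272043-31272342 and HLA-B at chr6:31357130-31357429 on the - strand, and CFB at chr6:31945845-31946144 on the + strand. Capitals mark, on either strand, the CCAAT box, the NF-kB letters (GGG, any 2 bases, TT, any base, CC) and the interferon response letters (GAAA, any 2 bases, GAAA).
HLA-F: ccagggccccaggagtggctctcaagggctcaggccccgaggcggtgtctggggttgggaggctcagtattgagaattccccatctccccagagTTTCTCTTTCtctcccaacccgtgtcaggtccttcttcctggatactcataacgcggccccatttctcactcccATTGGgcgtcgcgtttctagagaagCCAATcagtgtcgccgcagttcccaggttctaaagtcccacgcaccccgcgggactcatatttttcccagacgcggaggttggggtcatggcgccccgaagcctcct
HLA-C: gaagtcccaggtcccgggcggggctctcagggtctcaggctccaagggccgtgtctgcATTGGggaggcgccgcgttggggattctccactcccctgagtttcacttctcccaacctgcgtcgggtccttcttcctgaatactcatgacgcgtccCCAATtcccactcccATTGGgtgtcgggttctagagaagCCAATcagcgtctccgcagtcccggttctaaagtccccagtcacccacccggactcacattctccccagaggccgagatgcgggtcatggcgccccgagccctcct
HLA-B: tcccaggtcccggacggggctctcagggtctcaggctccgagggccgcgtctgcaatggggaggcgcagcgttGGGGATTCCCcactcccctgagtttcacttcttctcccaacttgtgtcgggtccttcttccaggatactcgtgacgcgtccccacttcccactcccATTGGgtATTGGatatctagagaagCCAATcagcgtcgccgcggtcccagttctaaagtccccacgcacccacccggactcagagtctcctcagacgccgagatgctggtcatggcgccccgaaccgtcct
CFB: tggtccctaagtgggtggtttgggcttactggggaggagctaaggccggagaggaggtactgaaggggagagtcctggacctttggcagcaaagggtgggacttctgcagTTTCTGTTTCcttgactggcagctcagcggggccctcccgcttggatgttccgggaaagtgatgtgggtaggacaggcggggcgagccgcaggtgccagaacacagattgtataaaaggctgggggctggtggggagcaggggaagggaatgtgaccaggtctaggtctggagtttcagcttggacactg
HLA-F held 1 interferon-type match, with its first base at position -156 from the start, and 2 CCAAT boxes. HLA-C held 4 CCAAT boxes and no exact match to the other letter patterns. HLA-B held 3 CCAAT boxes and the only NF-kB match of the 4 windows, at -177. CFB held 1 interferon-type match at -140 and no CCAAT box. Of 35116 promoter windows of the same length, 5.68% held the NF-kB letters, 3.57% the interferon-type letters and 34.6% a CCAAT box. A CCAAT box stood in 5 of 6 class I windows and in 11 of 12 class II windows. The interferon-type letters stood in 3 of 5 windows of the peptide processing genes (TAP1, TAP2 and TAPBP) and in 0 of 12 class II windows. A match is a description of letters and not a bound site. A window without a match can still hold a site of that kind with other letters.

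Regions open in every library lay mostly at gene starts. Strong peaks were found in all 30 libraries in 58 of the 315 regions, and 37 of these 58 lay within 1 kb of a listed gene start. Of the 37, 21 were nearest to a start of the list of other broadly expressed genes, 5 of chromatin and transcription genes, 4 of peptide processing genes, 3 of heat shock genes, 3 of class I genes and 1 of a class II gene. Another 35 regions had a strong peak in a single library. The region with the best mean place over all libraries, 2840, was at the start of KIFC1, a mitotic kinesin. It was followed by the starts of CUTA (mean place 3458) and of NEU1 (3531), the gene of lysosomal sialidase. GTF2H4, a subunit of the transcription and repair factor TFIIH, led the class I part with a mean place of 4024. Within the lines the order differed, with KIFC1 (mean place 4362 over 15 libraries) and GTF2H4 (5214) first in Eahy926, and NEU1 (876) and KIFC1 (1318) first in TeloHAEC. Of the 39 other broadly expressed genes listed, 36 had a region at the start, and in 24 it was strong in every library of both lines.

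By contrast the antigen-presentation genes split by class. The starts of HLA-E and HLA-C had strong peaks in all 30 libraries, and so did those of TAP2 and PSMB8 and the single region shared by PSMB9 and TAP1, 2 genes that start back to back (chr6:32821671-32822171). TAPBP, which bridges TAP and class I molecules, had strong peaks in only 6 TeloHAEC and 0 Eahy926 libraries. Of 13 class II genes only HLA-DMA, which edits the peptides of class II molecules, was strong at its start in all 30 libraries. Its partner HLA-DMB had strong peaks in 7 Eahy926 and 15 TeloHAEC libraries, HLA-DPB1 in 4 and 8, and HLA-DRA, the gene of the nearly constant alpha chain of HLA-DR, in 5 and 1. HLA-DOB and HLA-DOA had them in 2 TeloHAEC libraries each. The other 7 class II genes had no region within 1 kb of the start.

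The stretch that holds HLA-DRB1, HLA-DQA1 and HLA-DQB1 was the emptiest of the complex. From 32407820 to 32805818, 398.0 kb, no region passed the filter for the comparison of lines (a strong peak in at least 3 of its 12 libraries). It held 8 untested regions and 141 deposited summits over all libraries, with a median of 3.5 and at most 12 per library. Per the file headers the authors used uniquely aligned tags, and these genes are highly variable and have close copies. The part of unique alignment in these values was not tested, and the values of HLA-B and HLA-C are uncertain for the same reason.

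TeloHAEC had more strong peaks in the MHC than Eahy926. The 3 day 0 controls of TeloHAEC held 197 to 205 and the day 1 controls 176 to 179, against 155 to 166 and 133 to 141 in Eahy926. The 6 TeloHAEC controls averaged 188.5 ± 12.9 (SD, n = 6) and the 6 Eahy926 controls 149.5 ± 14.8 (SD, n = 6), and the lines did not overlap. The ratio of medians was 1.25 in class I, 1.26 in class III and 1.33 in class II. Day 0 stood above day 1 in each line, and the test of the lines held a day term. In class II the controls of the lines were apart (25 to 34 against 36 to 45), in class III they met at 46, and in class I they overlapped (69 to 87 against 85 to 102), as the plot of strong peaks by library shows. The controls were also apart over the rest of chromosome 6, with 2217 to 2307 strong peaks in Eahy926 and 2465 to 2648 in TeloHAEC. In the 3.9 Mb just above the MHC they were apart too (114 to 132 against 134 to 146). Just below it they overlapped (156 to 193 against 147 to 192).

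**Figure D1:**
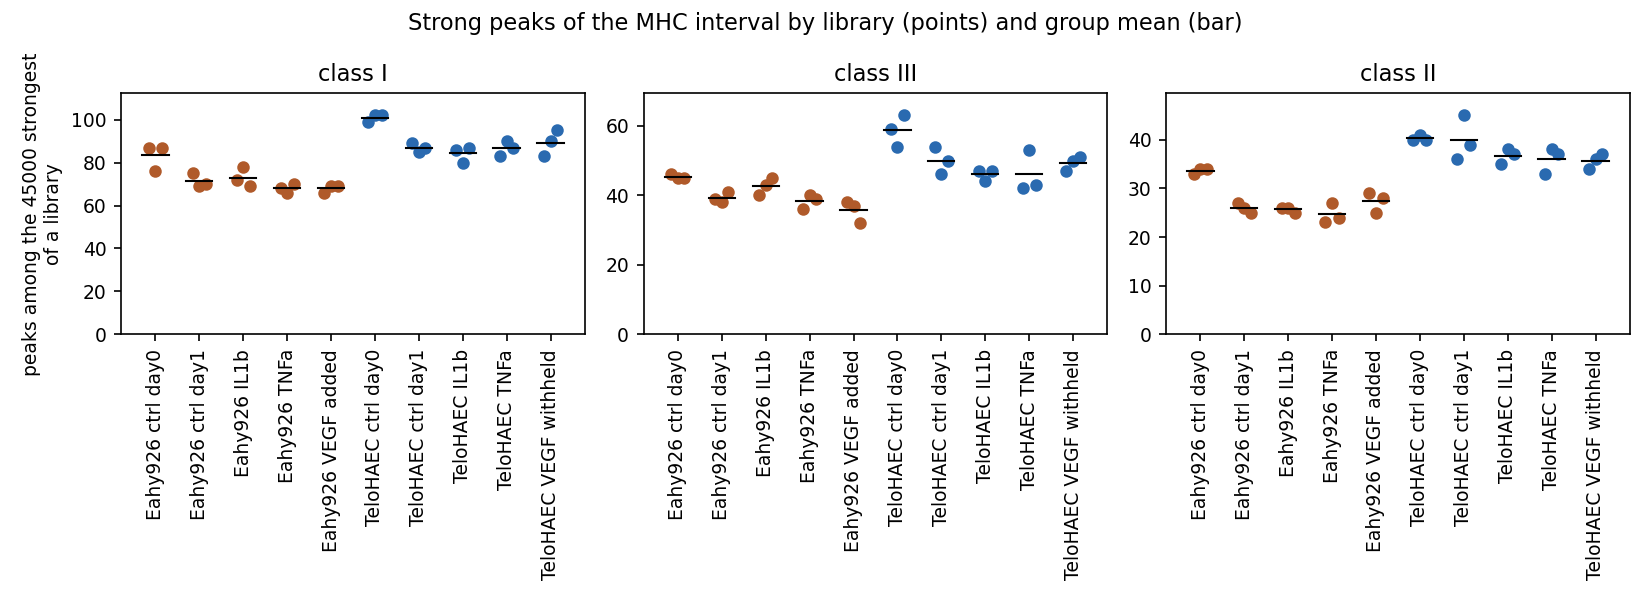
Number of peaks of the MHC interval among the 45000 strongest of each library (vertical axis), in the class I, class III and class II parts, for the 10 groups of 3 libraries (Eahy926 brown, TeloHAEC blue; bar, group mean). TeloHAEC controls of day 0 hold the most peaks in class I and class III, and treated groups lie near the day 1 controls of their line.

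The main comparison of the lines asked which MHC regions differed in untreated cells. Of 221 regions tested in the 12 controls, 57 were higher and 7 lower in TeloHAEC (limma, Benjamini-Hochberg over all regions tested, threshold 0.05). That is 25.8% and 3.17%, where 19.6% and 18.1% of all 64280 regions tested were called higher and lower. The median change was 0.37 in the interval and -0.07 over all regions. Class I had 30 higher and 6 lower of 109, class III 17 and 0 of 65, and class II 10 and 1 of 47. At gene starts 11 of 77 were higher and 1 lower, and elsewhere 46 of 144 were higher and 6 lower. With peaks ordered by the authors' fold enrichment in place of p, 41 were higher and 11 lower, which moves the higher share of the calls from 89.1% to 78.8%. In that order 19.3% of the MHC regions were higher and 5.19% lower, where all regions had 17.6% and 15.7%, so the share of higher calls was near that of all regions. On day 0 alone it was 19.3% against 19.7% of all, and the share of lower calls 3.65% against 19.8%.

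The lean towards higher calls was not particular to the MHC, and it varied along chromosome 6. Of 39 other windows of 3.9 Mb with at least 20 tested regions, 27 had more higher than lower calls, 11 fewer and 1 as many. Over the rest of chromosome 6, 24.7% of 3440 regions were higher and 12.0% lower. In the 3.9 Mb just below the MHC 29 of 223 were higher and 10 lower, and in the 3.9 Mb just above it 42 and 17 of 178. The 6 windows of 3.9 Mb nearer the short-arm end had 34.0% to 46.9% higher and 2.94% to 9.09% lower. Windows that went the other way lay on the far side of the MHC, such as the fifth above it, with 15.2% higher and 28.8% lower, and the tenth, with 5.13% and 48.7%. On the autosomes without chromosome 6 the shares were 19.3% and 18.5%. These differences between stretches were not tested.

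**Figure D2:**
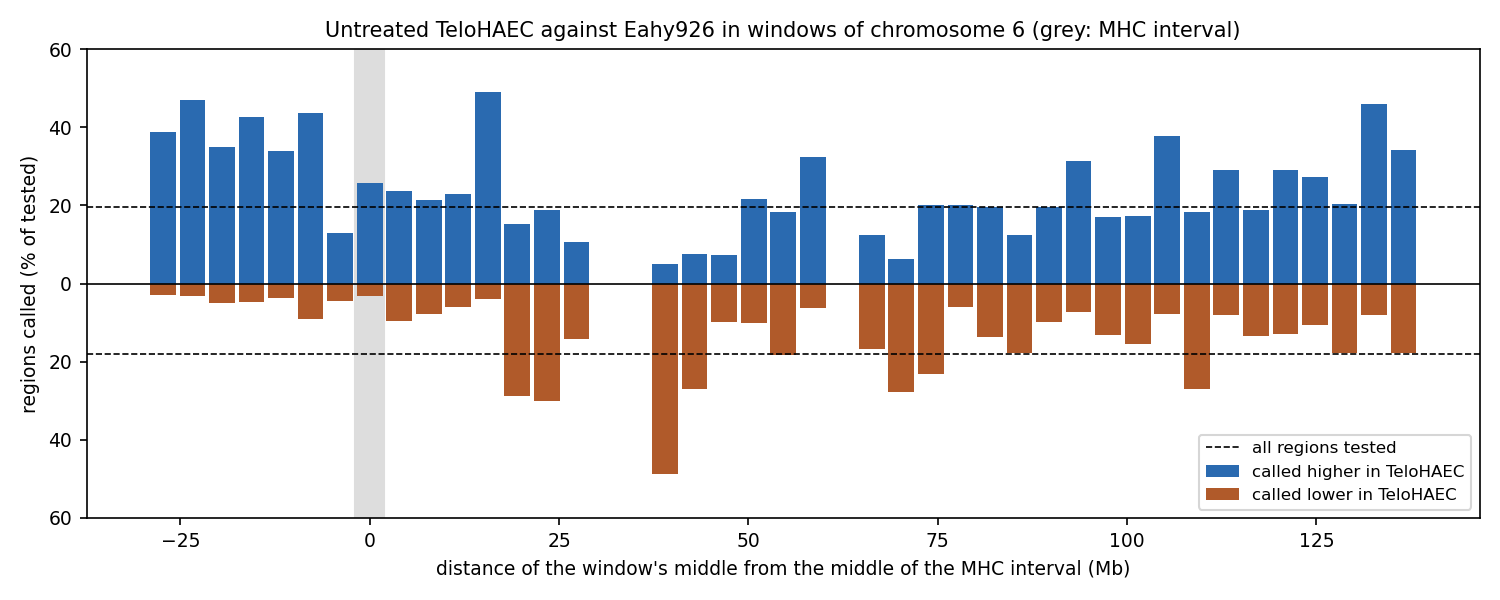
Share of tested regions called higher (blue, upwards) or lower (brown, downwards) in TeloHAEC than in Eahy926 controls, in windows of 3.9 Mb along chromosome 6 with at least 20 tested regions, by distance from the middle of the MHC interval. The MHC (grey) has 25.8% higher and 3.17% lower, between windows of the short arm that lean the same way; dashed lines give the shares over all regions.

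Class I gene starts were among the regions higher in TeloHAEC. At HLA-E, whose product is read by natural killer cells, the places were 3706, 1838 and 5903 (day 0) and 980, 4453 and 438 (day 1) in TeloHAEC. In Eahy926 they were 10767, 9444 and 14482, and 13673, 6779 and 5869. The weakest TeloHAEC place (5903) lay just past the strongest of Eahy926 (5869), so the lines overlapped by 1 library, and the change was 2.22 ± 0.55 (SE; adjusted p = 0.00463, limma). It was 1.73 on day 0 and 2.72 on day 1 alone, and 0.87 (adjusted p = 0.183, limma) in the order by fold enrichment. HLA-C had places of 1839 to 12255 in TeloHAEC and 10576 to 23799 in Eahy926 controls, a change of 2.04 ± 0.46 (adjusted p = 0.00248, limma). On day 1 alone it was 1.83, with an adjusted p of 0.0818 by limma. HLA-F had places of 1184 to 14672 against 15732 to 32666, so that the lines were apart, and a change of 1.62 ± 0.48 (adjusted p = 0.0141, limma). Within days it was 0.98 and 2.26 (adjusted p = 0.0683 and 0.0584, limma), and with 80% overlap of peak and region 0.96 (adjusted p = 0.232).

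HLA-B, MICA and MICB were not called. HLA-B had no peak at all, strong or weak, at its start in the 15 Eahy926 libraries. In TeloHAEC it had a strong peak in 10 of 15, at places of 23433 or weaker. Its controls differed by 0.29 ± 0.13 (adjusted p = 0.0716, limma). The 2 stress ligands of natural killer cells, MICA and MICB, had changes of 0.41 ± 0.32 and 0.09 ± 0.23. The 4 tested genes of peptide processing missed the threshold as well, with TAP2 at 0.95 ± 0.37 (adjusted p = 0.0507), PSMB8 at 0.90 ± 0.44 and the region shared by TAP1 and PSMB9 at 0.08 ± 0.41. In the plot of rank scores at gene starts, HLA-F, HLA-E and HLA-C step up from Eahy926 to TeloHAEC, and PSMB9 does not.

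**Figure D3:**
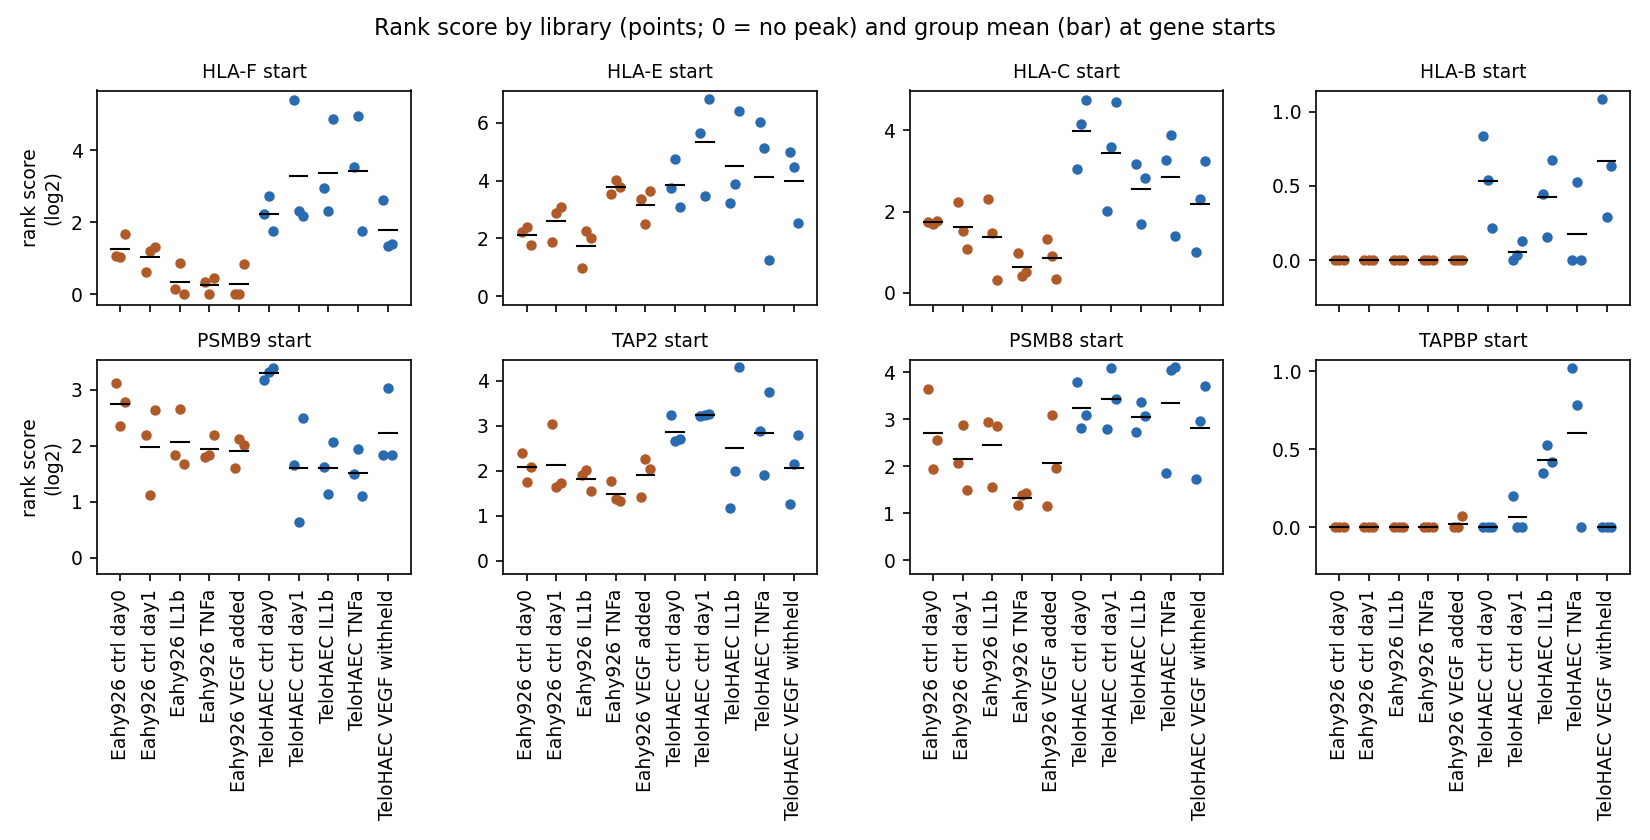
Rank score (log2 scale, 0 where a library has no peak) at the starts of 8 antigen-presentation genes in every library, by group (Eahy926 brown, TeloHAEC blue; bar, group mean of 3); each panel has its own vertical scale. HLA-B is at 0 in all 15 Eahy926 libraries.

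The largest change of the MHC in rank score was in the class II part, at chr6:32361373-32361873, 46 kb upstream of HLA-DRA. In the RefSeq gene table the coding genes between NOTCH4 and HLA-DRA are TSBP1 and BTNL2, the latter a butyrophilin-like gene that dampens T cells. TeloHAEC controls had places of 1571, 2342 and 1605 (day 0) and 469, 870 and 991 (day 1), among the strongest peaks of the line. Eahy926 controls had 36147, 21728 and 45119, and 26646, 47058 and 26463. The groups were far apart, with a change of 4.81 ± 0.43 (adjusted p = 8.05e-07, limma) and 4.18 and 5.44 within the 2 days. Each of the 12 leave-one-out fits and 12 other alternatives kept the call, but the change was not the largest on every scale. With normal scores it was 2.57, below 4.99 at a region downstream of C4B and 4.19 at one downstream of HLA-DPB1. By pileup scaled to depth it was 1.43, below 2.32 at a region upstream of TNXB. The treated TeloHAEC libraries stayed between places 518 and 3735. At the start of HLA-DRA itself, 5 Eahy926 and 1 TeloHAEC libraries had a strong peak (change -0.20 ± 0.11, adjusted p = 0.143, limma).

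Other class II calls had smaller changes in rank score. HLA-DMB was called higher (1.10 ± 0.36, adjusted p = 0.0232, limma), with a strong peak in 6 of 6 TeloHAEC and 3 of 6 Eahy926 controls. On day 0 alone its change was 0.37 (adjusted p = 0.503), and the call was lost without day 1 replicate 2 of Eahy926 or replicate 1 of TeloHAEC (adjusted p = 0.0536 and 0.0501, limma). A region 36.46 kb downstream of the HLA-DPB1 start was strong in all 6 TeloHAEC and no Eahy926 control (1.04 ± 0.25, adjusted p = 0.00436, limma), and with 30000 peaks it had 0.43 (adjusted p = 0.0879). KIFC1 had a change of 3.21 ± 0.98 (adjusted p = 0.0158, limma), with strong peaks in all 30 libraries. In the order by fold enrichment it was 1.15 (adjusted p = 0.247), and on days 0 and 1 alone 1.94 and 4.48 (adjusted p = 0.0795 and 0.0632).

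In class III the calls went one way. NEU1 had places of 60 to 1291 in TeloHAEC and 1297 to 6382 in Eahy926 controls, which is apart by a narrow margin (3.44 ± 0.79, adjusted p = 0.00274, limma). In the order by fold enrichment its change was 0.71 (adjusted p = 0.446). A region 4.88 kb upstream of TNXB, the gene of the matrix protein tenascin-X, had places of 3109 to 14689 in TeloHAEC controls and a strong peak in 1 of 6 Eahy926 controls (2.87 ± 0.33, adjusted p = 7.59e-06, limma). A region 43.9 kb downstream of the start of C4B, the nearest listed start, was strong in 6 and 0 controls (2.14 ± 0.29, adjusted p = 3.18e-05). Whether it belongs to that complement gene was not tested. ATF6B, a factor of the unfolded protein response, and NELFE, of the negative elongation complex, were higher by 2.32 ± 0.70 and 1.41 ± 0.51 (adjusted p = 0.0155 and 0.0358, limma). In the order by fold enrichment neither passed (0.61 and 0.57, adjusted p = 0.387 and 0.468). On day 1 alone neither passed as well (1.94 and 1.55, adjusted p = 0.24 and 0.177, limma). The NELFE call held in 4 of 12 fits that left out 1 library. It was lost without day 0 replicates 2 or 3 or day 1 replicates 1 or 3 of Eahy926, and without replicates 1 or 3 of either day of TeloHAEC (adjusted p from 0.0502 to 0.0869). At the start of NOTCH4 strong peaks occurred in 0 of 15 Eahy926 and 7 of 15 TeloHAEC libraries, among them the 3 controls of day 1 and none of day 0 (0.35 ± 0.13, adjusted p = 0.0395, limma). That call was lost without Eahy926 control replicate 1, 2 or 3 of day 1, in the order by fold enrichment (0.26, adjusted p = 0.0713), without the day term (adjusted p = 0.0792) and with a replicate block (adjusted p = 0.0799).

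In class I outside the HLA starts, the largest rises were 33.66 kb downstream of the start of CDSN, a gene of skin (2.63 ± 0.33, adjusted p = 1.65e-05), and 7.33 kb downstream of HLA-E (2.23 ± 0.36, adjusted p = 0.000146). Regions 15.95 kb downstream of DDX39B and 46.03 kb upstream of TRIM26 followed, with 1.89 ± 0.33 and 1.69 ± 0.36 (adjusted p = 0.000314 and 0.00152). On day 0 alone the latter was 0.97 (adjusted p = 0.0617). Over the whole MHC, groups did not overlap in 21 of 221 regions that were higher in TeloHAEC (9.5%) and 1 that was lower (0.452%). Of all regions tested 8.67% and 6.65% were so separated, so the higher share was near that of all regions. Of the 57 higher regions, 27 had no strong peak in any Eahy926 control, and 13 had one in all 12 controls.

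Only 7 regions were lower in TeloHAEC, and 6 of these were in class I. The start of IER3, an early gene of NF-kB that guards against cell death, was strong in 5 of 6 Eahy926 and 1 of 6 TeloHAEC controls (-0.77 ± 0.22, adjusted p = 0.0107, limma). It was -0.28 in the order by fold enrichment and -0.26 with 30000 peaks (adjusted p = 0.0815 and 0.0991). A region 15.16 kb upstream of it was lower too (-0.86 ± 0.24, adjusted p = 0.0101), with -0.63 on day 0 alone (adjusted p = 0.112). The single lower region whose groups were apart lay 8.11 kb downstream of RPS18, a ribosomal protein gene, at chr6:33247708-33248208. It was strong in 6 of 6 Eahy926 and 0 of 6 TeloHAEC controls, with a change of -0.79 ± 0.21 (adjusted p = 0.00807, limma). Within days that was -1.29 on day 0 and -0.28 on day 1 (adjusted p = 0.169), and with 30000 peaks -0.28 (adjusted p = 0.131).

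**Figure D4:**
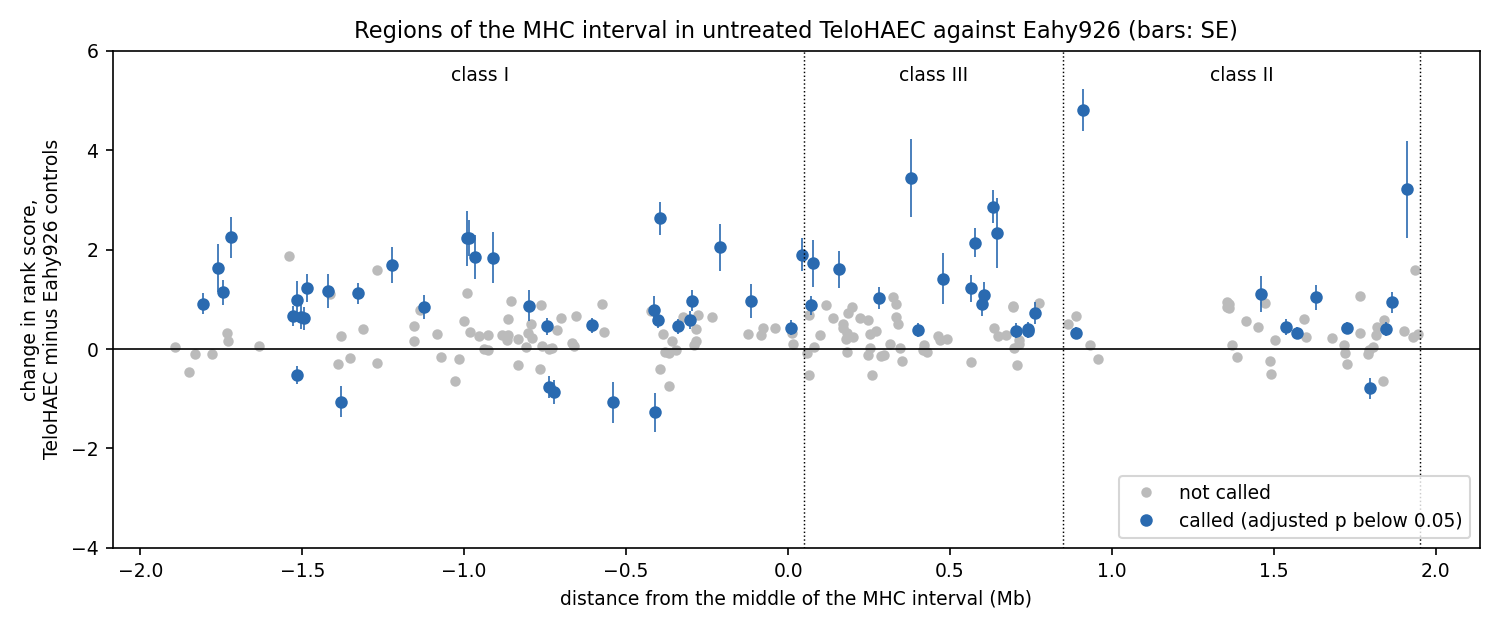
Change in rank score of TeloHAEC against Eahy926 controls for the 221 tested regions of the MHC (points; blue, called, with SE) against distance from the middle of the interval; dotted lines bound class I, class III and class II. Called regions lie mainly above 0 in all 3 parts, the highest point is the class II region at 4.81, and a stretch without tested regions follows it.

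Genes of antigen presentation outside the MHC were read for comparison. Of 19 listed, 15 had a tested region at the start, and 1 was higher and 1 lower in TeloHAEC, where 19.6% and 18.1% of all regions were. With 15 genes no difference from all regions is claimed. The higher one was PDIA3, a chaperone of class I loading (1.46 ± 0.41, adjusted p = 0.0102, limma), which did not pass in the order by fold enrichment (0.94, adjusted p = 0.148). PDIA3 also missed the threshold with 80% overlap, on day 0 alone and on day 1 alone (adjusted p = 0.255, 0.0734 and 0.0579, limma). The lower one was CIITA, the master co-activator of class II genes, with a strong peak at its start in 14 of 15 Eahy926 and 0 of 15 TeloHAEC libraries (-0.85 ± 0.32, adjusted p = 0.0431, limma). The CIITA call was lost without any 1 of the 6 TeloHAEC controls or without Eahy926 control replicate 3 of day 0 (adjusted p from 0.0504 to 0.0816, limma). It was also lost with 80% overlap, without the filter, without the day term and on day 1 alone (adjusted p = 0.0558, 0.128, 0.0719 and 0.0822, limma). B2M, the light chain of all class I molecules, had 1.16 ± 0.51 (adjusted p = 0.0759), and NLRC5, the class I counterpart of CIITA, -0.47 ± 0.39.

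Neither cytokine changed a region of the MHC past the threshold. With IL1b in TeloHAEC 0 of 222 regions were called, where 0.334% of all 58694 were, and 15 had an unadjusted p under 0.05 (limma), which is 6.76% against 9.92% of all. With TNFa in Eahy926 0 of 160 were called, where 0.267% of all 56650 were, and 7 had an unadjusted p under 0.05, 4.38% against 8.77%. In the 2 pairings with few calls anywhere, TNFa in TeloHAEC and IL1b in Eahy926, 0.00341% and 0.00353% of all regions were called. In the MHC 0 regions were called in each, and 15 and 11 had an unadjusted p under 0.05 (limma), where 7.76% and 4.2% of all regions had. The median SE of an MHC region was 0.50 in TeloHAEC and 0.47 in Eahy926, which limits what these fits could detect. Both cytokines shared the 3 day 1 controls of their line, so their values are given side by side.

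CFB, whose product drives the alternative complement pathway, had the smallest p of the MHC with IL1b in TeloHAEC. At chr6:31913358-31913858, 0.11 kb before its start, the IL1b libraries had places 31662, 25460 and 25557, and no day 1 control had a peak in the shortened list. The change was 0.86 ± 0.23 (adjusted p = 0.107, limma). TNFa in TeloHAEC gave a peak in 1 of 3 libraries, at 32882 (0.20 ± 0.23). In Eahy926 the TNFa libraries had places 23689, 24861 and 44848, against none in controls and none with IL1b (0.74 ± 0.22, adjusted p = 0.213, limma). The 3 day 0 controls of TeloHAEC also had a strong peak, at 41501, 25755 and 37315. Of the 3 day 1 controls, 2 had a weaker deposited peak there.

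HLA-E had values by cytokine and line as well. The region 7.33 kb downstream of its start had strong peaks in all 15 TeloHAEC libraries. In Eahy926 it had them in all 3 TNFa libraries, at 29257, 10906 and 23224, and in 1 of 6 controls, none with IL1b and none with VEGF, while all 6 controls had a deposited peak there when weak ones are counted. The change with TNFa in Eahy926 was 1.14 ± 0.33 (adjusted p = 0.177, limma), and IL1b against TNFa gave -1.35 ± 0.33 (adjusted p = 0.07, limma). That last value passed without 1 TNFa library, replicate 1 (-1.65, adjusted p = 0.0262, limma). At the HLA-E start itself the Eahy926 TNFa libraries had places 4269, 3057 and 3616, all better than those of the day 1 controls at 13673, 6779 and 5869 (1.18, adjusted p = 0.617, limma). In the direct comparison of IL1b with TNFa, 0 MHC regions were called in Eahy926 and 0 in TeloHAEC, where 0.316% and 0.104% of all regions were, and 12 and 9 had an unadjusted p under 0.05 (limma), against 8.59% and 7.49% of all.

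**Figure D5:**
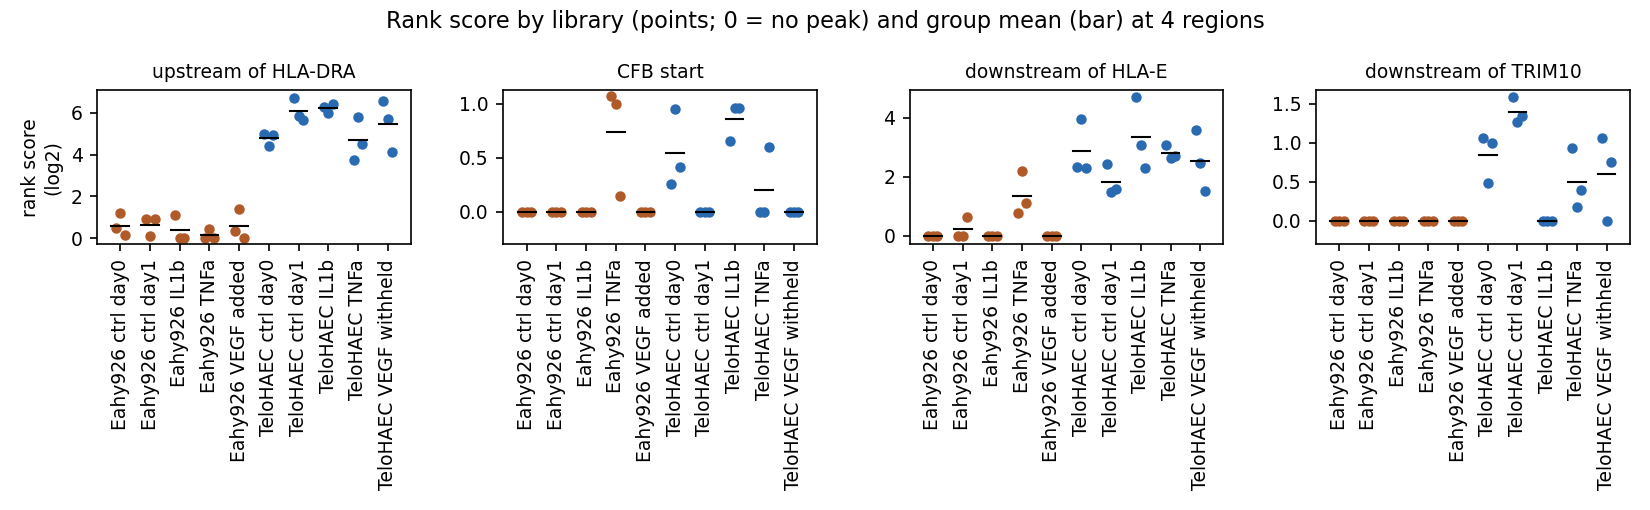
Rank score (log2 scale, 0 without a peak) in every library of the 10 groups (Eahy926 brown, TeloHAEC blue; bar, group mean of 3) for 4 regions, each with its own vertical scale. The region upstream of HLA-DRA separates the lines under every treatment; CFB has peaks with TNFa in Eahy926 and with IL1b in TeloHAEC, and also in the 3 day 0 controls and 1 TNFa library of TeloHAEC; the region downstream of HLA-E has them in all 3 TNFa libraries of Eahy926; the one near TRIM10 has none with IL1b in TeloHAEC.

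Other regions moved into or out of the strong or listed peaks with IL1b in TeloHAEC, and none passed the test. A region 5.98 kb downstream of TRIM10, in a cluster of tripartite motif genes, had places 16551, 20690 and 19650 in day 1 controls and no listed peak in the IL1b libraries (-1.40 ± 0.39, adjusted p = 0.13, limma). All 3 IL1b libraries still had a weaker deposited peak there. Regions 13.49 kb downstream of HLA-DPB1, 21.37 kb upstream of HLA-DRB5 and at the HLA-B start had a strong peak in 3 of 3 IL1b libraries and 0 of 3 controls, as had CFB. At HLA-B the controls had 2 listed peaks, at 48609 and 45568, and 3 deposited ones, so that the steps in place were small. Over all regions 2.01% appeared and 1.23% disappeared in this sense, and in the MHC it was 4 and 3 of 222, near those shares. A region 43.9 kb downstream of the C4B start had places 15333, 17533 and 11966 in controls and a single weak one, 42720, with IL1b (-1.68 ± 0.55, adjusted p = 0.216). A region 37.36 kb upstream of IER3 had places 9794, 2876 and 2993 with IL1b and 28171, 31065 and 14962 in controls, which do not overlap (2.43 ± 0.69, adjusted p = 0.135).

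At the antigen-presentation starts none passed with either cytokine (limma). HLA-C, HLA-F and PSMB9 had changes of -0.88, 0.08 and 0.01 with IL1b and of -0.59, 0.12 and -0.09 with TNFa in TeloHAEC. In Eahy926 they had -0.25, -0.69 and 0.08 with IL1b, and -0.97, -0.78 and -0.04 with TNFa. TAPBP had strong peaks in 3 of 3 IL1b, 2 of 3 TNFa and 1 of 3 control libraries of TeloHAEC, with changes of 0.37 and 0.54 (adjusted p = 0.70 and 0.63, limma). Most peptide processing starts went the other way in TeloHAEC. Of 7 regions tested there, 2 had a change above 0 and 5 below with IL1b, and 1 above and 6 below with TNFa. With VEGF withheld it was also 1 above and 6 below, so this lean was not particular to the cytokines. In Eahy926, of 4 tested, 2 were above and 2 below with IL1b, and 0 above and 4 below with TNFa. With VEGF added it was again 0 above and 4 below. The treated groups of a line all share its day 1 controls. TNF and LTA had no region within 1 kb of their starts, and IER3 had changes of 0.08 and 0.34 in TeloHAEC.

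The response to a cytokine was not called different between the lines in any MHC region. For IL1b 0 of 239 regions passed, where 0.258% of all 77247 did, and 18 had an unadjusted p under 0.05 (limma), where 8.07% of all had. For TNFa 0 passed and 17 had such a p (limma), where the shares of all were 0.0518% and 7.25%. The TRIM10 region came closest for IL1b, at -1.40 ± 0.34 (adjusted p = 0.0728), TeloHAEC minus Eahy926, where Eahy926 has no listed peak in any library. For TNFa it was a region 22.42 kb upstream of DAXX (-1.10 ± 0.28, adjusted p = 0.209). This DAXX region passed for both cytokines without 1 TeloHAEC control of day 1, replicate 1 (-1.21 for IL1b and -1.36 for TNFa, adjusted p = 0.0361 and 0.0341), and for IL1b without TeloHAEC IL1b replicate 2 (-1.16, adjusted p = 0.0491).

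VEGF gave no call on the autosomes (0.0% in either line), and so 0 of 222 MHC regions when it was withheld from TeloHAEC and 0 of 160 when added to Eahy926. In the MHC 21 and 8 were at an unadjusted p under 0.05 (limma), which is 9.46% and 5.0% against 5.03% and 5.08% of all. The smallest p in TeloHAEC was 5.18 kb downstream of FLOT1, a gene of membrane microdomains (1.36 ± 0.33, adjusted p = 0.894). In Eahy926 it was 38.19 kb downstream of MICA (-0.85 ± 0.28, adjusted p = 0.967). IL1b gave the same value there, since neither group had a peak and both share their controls.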

How the data were processed

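The submitters' processing notes name Bowtie2, MACS2 and hg19. Per the file headers the peak caller was MACS2 2.1.1.20160309. The deposited tables give each summit's pileup (coverage in tags), p and q as -log10, and fold enrichment (a ratio), all as the authors' caller wrote them. They hold no counts.

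One summit, the strongest, was kept per peak interval. Peaks of the 22 autosomes were ordered by p, and each list was ended at 49774 peaks, as many as the shortest holds. Regions of fixed width came from the 45000 strongest peaks per list, and a peak counted in a region when it covered at least 50% of the shorter. The test was limma 3.58.1 in R 4.3.3, with a trend and two-sided, on the rank scores of all autosomal regions with a strong peak in at least 3 libraries of the fit. Lines were compared in the 12 controls with a day term, treatments in the 12 libraries of day 1 per line, and responses between lines in all 24 of these. The fit was tested on simulated data. Python 3.11.15, numpy 2.4.6, pandas 2.3.3 and matplotlib 3.10.9 were used. Errors are SE of fitted changes, or SD where so named. P-values weigh a change against the spread between replicate libraries of these lines, and not against the spread between lines of a kind, since each kind had only 1.

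The members, lists and tests were chosen with earlier results of these data known. Named regions followed a rule: the 8 largest rises and 8 largest falls called between lines with groups apart, per treatment up to 8 called regions and, with under 3 calls, the 5 smallest p, up to 5 regions each way with a peak in all of 1 group and none of the other, a panel of genes, and the 5 best mean places per class. Others (NELFE, ATF6B, KIFC1, HLA-DMB, CIITA and PDIA3 among them) were named after their values were seen, some regions the rule names are left out for readability, and part of the panel is not reported here.

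No hg19 annotation was used. Each region was named by the nearest of the listed gene starts, which need not be the gene it lies in or acts on. Gene starts were written from general knowledge: 143 of 143 were on the chromosome of the RefSeq table, and 108 of 111 in the interval were spaced within 1 kb as on GRCh38.p14. Promoter sequences matched 111 of 130 list genes.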

Additional observations from a re-analysis of the deposited data

How the results depend on the processing

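Between the lines, the counts of regions higher and lower in TeloHAEC (57 and 7) were 41 and 11 by fold enrichment, 28 and 3 with 30000 peaks, 45 and 4 without the filter, 108 and 3 by pileup scaled to depth, 37 and 7 on day 0 alone and 34 and 1 on day 1 alone. The cause was not tested, though a day alone has fewer libraries and the shorter list fewer regions. Leaving out 1 library gave 45 to 55 higher and 5 to 8 lower. Higher regions outnumbered lower ones under each of these settings, but their share was not above that of all regions on day 0 alone (19.3% against 19.7%) and was near it by fold enrichment (19.3% against 17.6%). It was 20.2% against 16.8% on day 1 alone and 48.9% against 25.5% by pileup.

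The treatment, direct and difference comparisons kept 0 calls except the following. IL1b in TeloHAEC had 1 without the 3 libraries of lowest depth (28.86 kb upstream of PRR3). The difference of IL1b responses had 1 with normal scores and 1 without those libraries (the TRIM10 region). Leave-one-out gave 0 to 1 for IL1b against TNFa in Eahy926 and for both differences, and 0 for the others.

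Same-numbered libraries did not pair: after removal of group means 0 of 18 pairs per line and 0 of 6 between lines correlated above 0.1. The replicate number as a block gave 44 higher and 6 lower between the lines and 0 in all others; of the 20 called regions of the MHC named in the text, 2 lost their call, NOTCH4 and NELFE (adjusted p = 0.0799 and 0.0622, limma). Starts within 2 kb in place of 1 kb gave 101 regions in place of 87. Median peak ratios between lines stayed between 1.10 and 1.37. Depth is known as tags per library, not per region, so intervals per region could not be given.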
